A study of Mus musculus with 48 samples.

Results

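The first day of differentiation was compared between XX and XO mouse embryonic stem cells. The comparison used 8 arrays, 4 of XX and 4 of XO cells, taken at 6, 12, 18 and 24 h after the start of differentiation, of 48 arrays in the series. XX and XO arrays of the same hour formed 4 pairs, and all 22745 genes of the deposited table were tested. Gene expression had been measured on Affymetrix mouse Exon 1.0 ST arrays, which read RNA with probes placed along the exons of each gene.

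Both groups carry the line name Pgk12.1 in the labels and differ in their sex chromosomes, XX or XO. All had been adapted to N2B27 medium with the Gsk3 inhibitor CT-99021, the Mek1 inhibitor PD-0325901 and LIF. They were then seeded on fibronectin in N2B27 with Activin A and Fgf-basic and lysed at the stated hour. Undifferentiated XX and XO cells (0 h, replicate letters A and B), later XX and XO arrays, and XY cells of the line E14 under the same change of medium served for comparison. Each hour has 1 array per line between 6 and 24 h, all with the letter B. The spread behind each test is therefore the spread of the XX minus XO difference over 4 hours of 1 course. The labels do not say that these hours were separate cultures, and XX and XO are each 1 cell line, so sex chromosomes and any other difference between the lines cannot be told apart.

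Female mouse embryonic stem cells keep both X chromosomes active in the naive state, and silence 1 of them during differentiation through the noncoding RNA Xist. XX cells lose an X chromosome readily in culture, which gives XO cells that share their origin with the XX cells. Activin A and Fgf signalling move naive cells towards the primed state of the later epiblast, while Gsk3 and Mek inhibition with LIF hold them in the naive state. X-linked dosage is known to affect signalling, DNA methylation and the exit from the naive state in such cells.

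Rows of the deposited table carry Ensembl identifiers without symbols or chromosomes, and the reference table of 49997 genes used here matched 0 of them. No gene is named, X-linked and autosomal genes could not be separated, and the labelled cell type could not be checked against marker genes. Genes are described instead by how they behaved in arrays that did not enter the comparison. For each of 3 comparisons, identifiers are given for no more than 2 genes in each direction. All values are log2 expression values, so a difference of 1 log2 unit is a doubling.

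The 8 arrays resembled each other. Their medians lay between 6.88 and 7.002 log2 units, and each correlated on average at 0.962 to 0.974 with the other 7 across genes. The XO array at 12 h had the lowest median and the narrowest interquartile range, 2.89 log2 units against 2.99 to 3.18 in the other 7. Of the sum of squares of all genes over the 8 arrays, 35.6% went with the line, 42.6% with the hour and 21.8% with neither. The line took the largest of these parts in 5475 genes and the hour in 11673. These parts were not divided by their degrees of freedom, and the hour has more of them than the line. The shares and counts therefore do not rank the line against the hour.

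The comparison asked which genes differed between XX and XO cells throughout the first day. The paired test called 2566 genes (11.3% of those tested; limma, paired by hour, adjusted p under 0.05). XX cells exceeded XO cells in 1364 of them (6.00%) and fell short in 1202 (5.28%). At an unadjusted p under 0.05 there were 6103 genes (26.8%). The median called difference was 0.75 log2 units, or 1.68-fold, among higher genes and 0.69, or 1.61-fold, among lower genes. All called genes had the same sign in the 4 pairs, as did 18.2% (higher) and 17.0% (lower) of all genes. The paired test favours such genes, so this is largely built into the choice. In the values as deposited, the larger differences lay more often on the side of XX. A difference of 1 log2 unit or more was found in 396 called genes with XX higher (1.74%) and in 232 with XX lower (1.02%), and one of 2 or more in 57 (0.251%) and 20 (0.0879%). Centring each array on its median gave 1247 higher and 1357 lower genes, so the small excess of higher over lower calls turned with the scaling. The counts of called genes past 1 and 2 log2 units were not repeated after centring. The paired test rests on 3 residual degrees of freedom, and the count was 1403, 1205, 530 and 1066 without the 6, 12, 18 and 24 h pair. Without pairing by hour it was 1350.

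**Figure D1:**
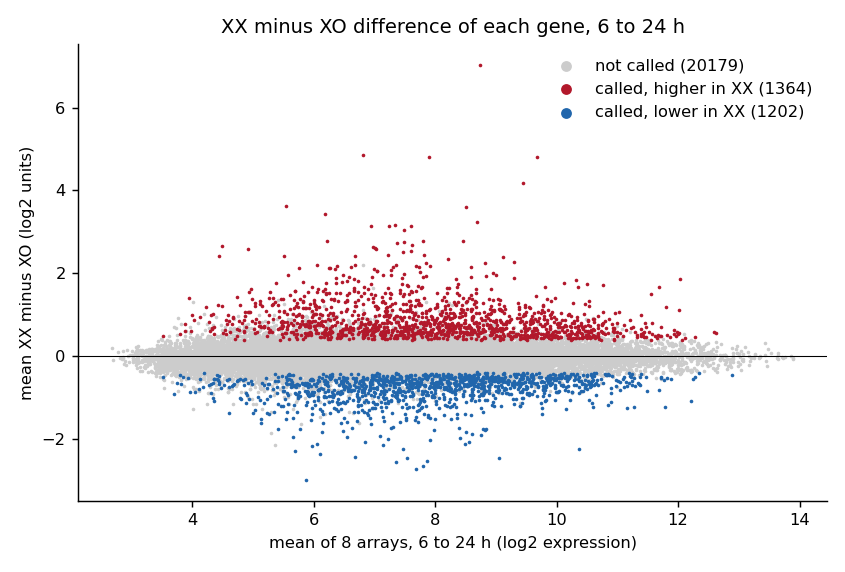
Each point is 1 of 22745 genes, with its mean over the 8 arrays of 6 to 24 h on the horizontal axis and its mean XX minus XO difference on the vertical axis, both in log2 units. Red points are the 1364 genes called higher and blue points the 1202 called lower in XX (limma, adjusted p under 0.05). The farthest points lie above 0, up to 7.03, while the lowest called difference is -2.98.

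A count of separated ranges needs no model. In 1635 genes (7.19%) all 4 XX arrays lay above all 4 XO arrays, and in 1455 genes (6.40%) all lay below. Among the called genes, 997 of the 1364 higher and 802 of the 1202 lower genes were separated in this way. In the rest, XX and XO values overlapped between hours although each pair differed in 1 direction. In bulk RNA of whole wells, a difference in the number of cells with a gene on and one in its RNA per cell cannot be told apart, and this holds for all results here.

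The identifier ENSMUSG00000035299 had the largest difference. Its levels at 6, 12, 18 and 24 h were 12.35, 12.11, 12.26 and 12.28 in XX cells and 5.37, 4.96, 5.61 and 4.94 in XO cells. The groups lay far apart at every hour, and neither line moved steadily in 1 direction. The difference was 7.03 log2 units (SE 0.14, limma adjusted p = 4.84e-05), or 131-fold. XY cells stood at 13.01 to 13.07 between 8 and 24 h, above XX, so XO was the line with the low level. No background level was measured here, and a low value may hold background signal that shrinks the difference.

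ENSMUSG00000025838 was the next largest, and here XY cells lay with XO. XX levels were 9.54, 9.29, 9.39 and 8.71 log2 units, and XO levels 4.97, 4.44, 4.70 and 3.44. The difference was 4.85 (SE 0.14, limma adjusted p = 2.58e-04), with no overlap. XY cells had 5.44, 5.04 and 3.67 at 8, 16 and 24 h. The level in XX then dropped towards that of XO, and the mean XX minus XO difference stood at 2.22 for 40 to 48 h and at 0.98 for 66 to 84 h. The difference at 6 to 24 h exceeded the one at 66 to 84 h by 3.86 (SE 0.38, limma adjusted p = 1.21e-04).

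Among genes lower in XX, ENSMUSG00000078922 came apart within the window. XX cells had 3.61, 4.75, 4.50 and 4.65 log2 units at the 4 hours, while XO cells had 4.70, 6.93, 8.05 and 9.76. XX values stayed low at every hour and the XO values were higher at each later hour, so the groups overlapped only through the XO array at 6 h. The mean difference was -2.98 (SE 0.61, limma adjusted p = 0.0315), from -1.09 at 6 h to -5.12 at 24 h. This call was lost without the 12 h pair (limma adjusted p = 0.0737), the 18 h pair (0.121) or the 24 h pair (0.0546), and without the pairing (0.0755), where the mean differences were -2.27 to -3.25. At 0 h the lines had differed by 0.14. XO cells were highest at 36 h with 10.64 (array B), and XX cells passed 8 log2 units first at 44 h with 8.07. At 66 to 84 h XX cells had 8.25 to 8.61 and XO cells 8.12 to 8.83. From 40 to 48 h to 66 to 84 h the XO mean went from 10.23 down to 8.39. The XX mean went from 7.74 up to 8.37, so the lines met from both sides, with the larger move in XO. XY cells had 5.20, 5.42 and 7.56 at 8, 16 and 24 h, between both lines at 24 h. They had started at 7.21 and 7.40 at 0 h, above XX and XO, so their 24 h level was near their starting level.

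ENSMUSG00000062939 was lower in XX at a steady distance. XX cells had 5.64, 6.93, 6.38 and 6.35 log2 units and XO cells 8.46, 9.45, 9.50 and 8.79, without overlap. The difference was -2.72 (SE 0.14, limma adjusted p = 0.00101). XO cells stood at 7.27 and 7.34 at 0 h, so their level was transiently high on the first day, while XX cells were at 6.15 and 6.02. XY cells, at 7.08, 7.83 and 7.30, lay between both lines. By 40 to 48 h the difference was -0.20, and its change from 6 to 24 h passed the test (-2.52, SE 0.30, limma adjusted p = 0.00107).

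**Figure D2:**
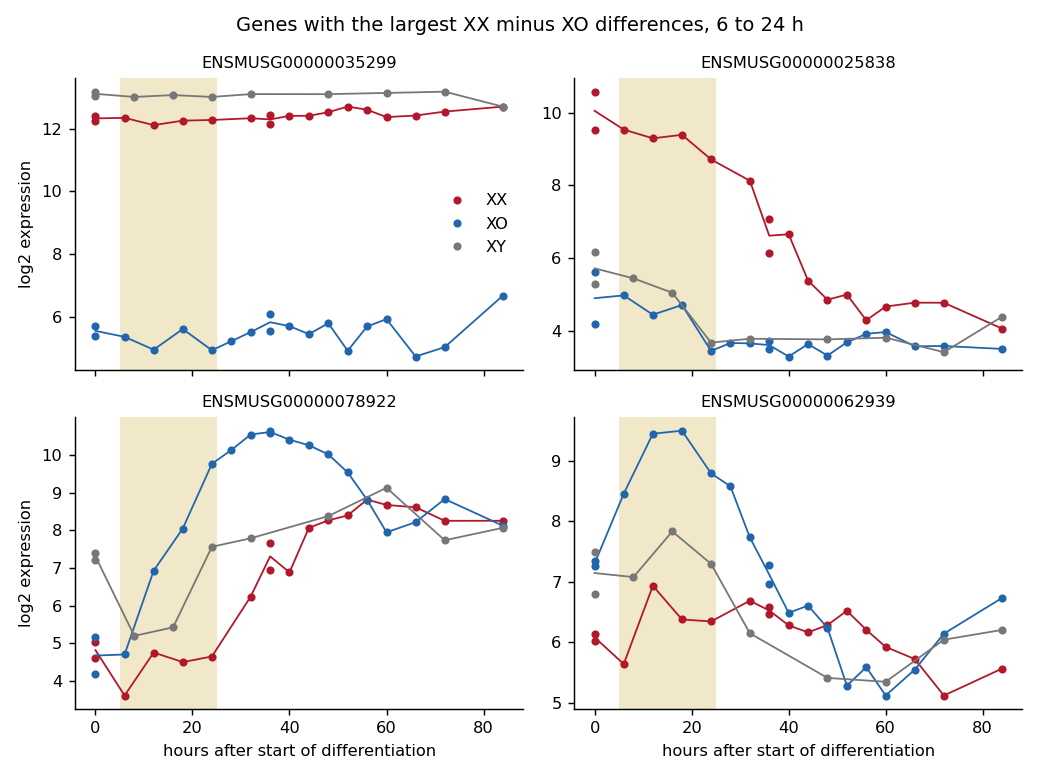
The log2 expression of the 2 genes with the largest called differences in each direction is plotted against hours after the start of differentiation, with 1 point per array, lines through the mean of each hour, and the 6 to 24 h window shaded. ENSMUSG00000035299 stays apart for the whole course and is low in XO alone, while in the other 3 genes the lines lie closer at 66 to 84 h than on the first day.

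Over all genes, the XX minus XO differences had a similar spread at the 4 hours. Their standard deviation over genes was 0.56, 0.53, 0.48 and 0.50 log2 units at 6, 12, 18 and 24 h, against 0.32 to 0.39 for replicate arrays A minus B at 0 h. The differences at 2 hours correlated at 0.424 to 0.606 across genes, as a description, since genes are not independent replicates. Called higher genes had a median difference of 0.76, 0.83, 0.72 and 0.71 at the 4 hours, and called lower genes of -0.70, -0.66, -0.73 and -0.65. The paired test on these same hours favours genes with a steady difference, so even medians are built into that choice. Counts past 1 log2 unit at a single hour, with no test, varied more. XX exceeded XO by that much in 798 genes at 6 h, 929 at 12 h, 497 at 18 h and 634 at 24 h. XX lay that much below XO in 792, 485, 509 and 532 genes. The uneven split at 12 h came with the low median of the XO array of that hour, and centring made it 797 and 614.

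No gene passed a test for a straight trend of the XX minus XO difference over 6 to 24 h (limma, 0 of 22745 genes, 0.00%). At an unadjusted p under 0.05, 1688 genes (7.42%) did. ENSMUSG00000078922, whose difference moved by -0.22 log2 units per hour, had an unadjusted limma p of 3.45e-05 and an adjusted p of 0.630. This test has 2 residual degrees of freedom.

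The next comparison asked whether the difference between the lines was already there in undifferentiated cells. It was, for most genes higher in XX. Of the 1364 genes, 1222 (89.6%) were also higher in XX in both pairs of 0 h arrays, where 40.0% of all genes were. Their median difference at 0 h was 0.83 log2 units, against 0.058 for all genes. In 1129 of them (82.8%) the 0 h difference was at least 50% of that at 6 to 24 h, and in 72 (5.28%) it was 0 or of the opposite sign. The genes lower in XX were less settled at the start. Of the 1202, 852 (70.9%) were lower in both 0 h pairs, where 26.3% of all genes were, and their median 0 h difference was -0.36. In 603 of them (50.2%) the 0 h difference was at least 50% of the later one, and in 185 (15.4%) it was 0 or of the opposite sign. The 0 h median of all genes was above 0, and centring moved it to -0.051, so part of the contrast between higher and lower genes goes with the scaling.

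Calls at other times came from a fit of 4 windows (0 h, 6 to 24 h, 40 to 48 h and 66 to 84 h) that gives each gene 1 spread. With that spread the first day itself had 8.28% of genes higher and 7.94% lower in XX. Of the 1364 genes higher on the first day by the paired test, 877 were also called higher at 0 h. They make 64.3% of the first-day list and 45.6% of the 1924 genes higher at 0 h (8.46% of genes tested). For lower genes, 268 were shared, or 22.3% of the first-day list and 61.3% of the 437 lower genes at 0 h (1.92%). Opposite calls numbered 1 and 3. The windows share no arrays, but the spread used at 0 h also comes from the first-day pairs, and 0 h has 2 pairs.

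A direct test of the change from 0 h called few genes. The XX minus XO difference was higher at 6 to 24 h than at 0 h in 2 genes (0.00879%) and lower in 16 (0.0703%; limma, 18 genes in all, 0.0791%). An unadjusted p under 0.05 was met by 2861 genes (12.6%). In 9 of the 18 genes the sign of the difference turned, in 6 it shrank and in 3 it grew. The count was 3 without either 0 h pair, 45 without the 6 h pair, 8 without the 12 h, 4 without the 18 h and 7 without the 24 h pair.

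Of these, ENSMUSG00000030762 began apart and closed within hours. At 0 h the XX arrays A and B had 7.98 and 9.20 log2 units and the XO arrays 5.13 and 5.17. At 6, 12, 18 and 24 h XX cells had 5.97, 5.15, 5.31 and 4.97 and XO cells 5.16, 5.12, 4.95 and 4.93. XX cells came down to the level that XO cells, and XY cells at 4.71 to 5.47, had throughout. The XX minus XO difference changed by -3.13 (SE 0.36, limma adjusted p = 0.0104), a call lost without the 0 h pair B (limma adjusted p = 0.163).

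ENSMUSG00000022346 went up in both lines, which lay closer together on the first day than at 0 h. XX cells started at 7.38 and 5.32 and XO cells at 5.23 and 3.85. From 6 to 24 h XX cells had 8.28, 9.20, 9.35 and 9.30 and XO cells 8.66, 9.15, 9.60 and 9.82. XY cells likewise had 5.04 and 5.84 at 0 h and 9.88 to 10.06 from 8 to 24 h. The 0 h replicates of 1 line lay apart by more than 1 log2 unit, with A above B in XX and XO alike. The difference changed by -2.08 (SE 0.23, limma adjusted p = 0.0104), a call lost without the 0 h pair A (limma adjusted p = 0.0818).

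In the opposite direction, ENSMUSG00000020142 was lower in XX at 0 h and higher in XX in each pair from 6 to 24 h. XX cells had 8.90 and 8.74 at 0 h and XO cells 9.96 and 10.34. From 6 to 24 h XX cells had 8.10, 8.67, 8.69 and 8.61 and XO cells 8.06, 7.73, 7.83 and 8.08. XO cells lay above XX at 0 h and below XX on the first day. The first-day difference of 0.59 did not pass the paired test (SE 0.17, limma adjusted p = 0.0780), and at 6 h it was 0.039. Later XX was lower again, with a mean XX minus XO difference of -0.58 at 40 to 48 h and -0.69 at 66 to 84 h. The change in the difference was 1.92 (SE 0.29, limma adjusted p = 0.0398), and it did not pass without either 0 h pair or without the 12, 18 or 24 h pair (values 1.64 to 2.19).

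ENSMUSG00000059731 separated on the first day. XX cells had 6.87 and 5.03 at 0 h and XO cells 6.998 and 5.82, so replicates lay farther apart than the lines. At 6, 12, 18 and 24 h XX cells had 7.35, 6.39, 6.88 and 7.12 and XO cells 5.73, 4.96, 5.43 and 5.33, without overlap. The first-day difference of 1.57 (SE 0.11, limma adjusted p = 0.00225) stood at 3.17 over 40 to 48 h. The change from 0 h was 2.04 (SE 0.32, limma adjusted p = 0.0415), and this call was lost when any 1 of the 6 pairs was left out.

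The differences of the first day were then set against later windows of the same courses. Of the 1364 higher genes, 1064 (78.0%) were higher in all 3 pairs of 40, 44 and 48 h, and 811 (59.5%) in all 3 pairs of 66, 72 and 84 h. Over all 22745 genes these counts were 5673 and 4347. Of the 1202 lower genes, 848 (70.5%) and 594 (49.4%) were lower in all 3 pairs, where 24.5% and 22.9% of all genes were. Median differences were 0.60 and 0.39 for higher genes and -0.45 and -0.31 for lower genes. Genes chosen for a difference on the first day tend to differ less elsewhere through that choice alone. By calls, 773 higher genes were shared with 40 to 48 h, 56.7% of the first-day list and 44.4% of the list there (7.66% of genes tested). For lower genes 539 were shared, 44.8% and 33.0% (7.18%). With 66 to 84 h the shared genes numbered 568 higher, 41.6% and 33.0% (7.56%), and 415 lower, 34.5% and 20.8% (8.76%).

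The lower genes did not follow a smooth course between these windows. Their median difference was -0.54 at 32 h and -0.36 at 48 h, then 0.022 at 52 h, -0.14 at 56 h, 0.091 at 60 h and -0.070 at 66 h, and again -0.48 at 72 h and -0.40 at 84 h. The 66 to 84 h window thus pools an hour near 0 with others well below it. The median of the higher genes was 0.86, 0.70, 0.74 and 0.59 at 52, 56, 60 and 66 h. At these 4 hours the XO arrays had interquartile ranges of 2.81, 2.90, 2.77 and 2.93 log2 units, against 3.09 to 3.19 in XX, and the part this plays was not tested.

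**Figure D3:**
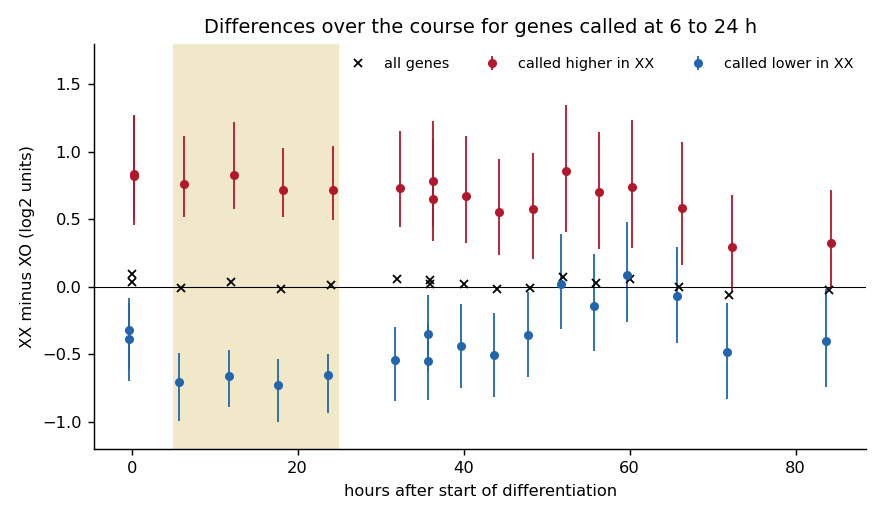
The median XX minus XO difference in log2 units is plotted against hours for the 1364 genes called higher (red) and the 1202 called lower (blue) at 6 to 24 h, with bars over the interquartile range of genes and crosses for the median of all genes. The shaded window chose the genes. Higher genes keep medians of 0.55 or more up to 66 h, while the lower genes have medians between -0.14 and 0.091 from 52 to 66 h.

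The difference between windows was then tested directly. Against 40 to 48 h, the XX minus XO difference was higher on the first day in 385 genes (1.69%) and lower in 419 (1.84%; limma, 804 genes, 3.53%), and an unadjusted p under 0.05 was met by 15.5%. Against 66 to 84 h it was higher in 964 (4.24%) and lower in 915 (4.02%; 1879 genes, 8.26%), with 21.9% at an unadjusted p under 0.05. Of the genes called on the first day, 12.8% and 27.8% were among them. In 1304 of the 1879 genes the sign of the mean difference was opposite between the windows, and in 198 it was the same and larger on the first day. Calls of opposite direction on the first day and at 66 to 84 h were made for 47 genes that were higher first and 89 that were lower first. The count against 40 to 48 h was 475 without the 18 h pair, 519, 273 and 310 without the 40, 44 and 48 h pair. The count against 66 to 84 h was 1247 without the 18 h pair and 1212 without the 72 h pair.

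ENSMUSG00000086503 was 1 of the 2 genes printed for a lower difference early than late, which have the same adjusted p. On the first day XX cells had 7.80, 7.18, 7.83 and 8.31 log2 units and XO cells 6.90, 6.64, 6.98 and 7.25. XX was higher in each pair, although the XX array at 12 h lay below the XO array at 24 h. The difference of 0.84 (SE 0.12, limma adjusted p = 0.0117) followed one of 0.085 at 0 h. It was 2.12 at 40 to 48 h and 4.22 at 66 to 84 h, where XX cells had 11.38 to 11.82 and XO cells 7.33 to 7.50. The first-day minus late change was -3.38 (SE 0.18, limma adjusted p = 4.24e-06). Without the 18 h pair the first-day call was lost (limma adjusted p = 0.0694), and without pairing as well (0.0631).

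ENSMUSG00000040694 did not differ detectably on the first day. XX cells had 8.18, 9.58, 9.51 and 9.57 and XO cells 8.37, 9.44, 9.41 and 9.31, with overlapping values that moved together. The difference was 0.076 (SE 0.11, limma adjusted p = 0.731). At 66 to 84 h XX cells had 9.16 to 9.54 and XO cells 5.83 to 6.13, and the change between windows was -3.28 (SE 0.18, limma adjusted p = 4.24e-06). Here the lines parted only after the window. XO means went from 9.13 on the first day to 7.90 at 40 to 48 h and 6.02 at 66 to 84 h. XX means rose from 9.21 to 10.12 and then came down to 9.38.

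In the other direction, ENSMUSG00000022054 had a shared early peak. XX cells had 11.92, 9.94, 9.24 and 8.83 log2 units and XO cells 10.36, 7.48, 6.96 and 7.31, from 10.36 and 9.64 (XX) and 8.10 and 7.56 (XO) at 0 h. Both lines were highest at 6 h of all their arrays, XY cells were highest at 8 h with 8.83, and XX exceeded XO at each hour. The difference of 1.95 (SE 0.19, limma adjusted p = 0.00455) was not called without pairing (0.216), since the level moved more over the hours than between the lines. At 66 to 84 h the difference was -1.56, and the change passed the test (3.51, SE 0.27, limma adjusted p = 4.29e-05).

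ENSMUSG00000032714 was flat in both lines on the first day and crossed later. XX cells had 8.89, 8.72, 8.84 and 8.68 and XO cells 6.85, 6.39, 6.75 and 6.39. The difference was 2.19 (SE 0.10, limma adjusted p = 7.78e-04), with no overlap, and it was 2.45 at 0 h. At 66 to 84 h XX cells had 7.17 to 7.29 and XO cells 7.32 to 7.76. The change was 2.53 (SE 0.20, limma adjusted p = 4.58e-05).

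**Figure D4:**
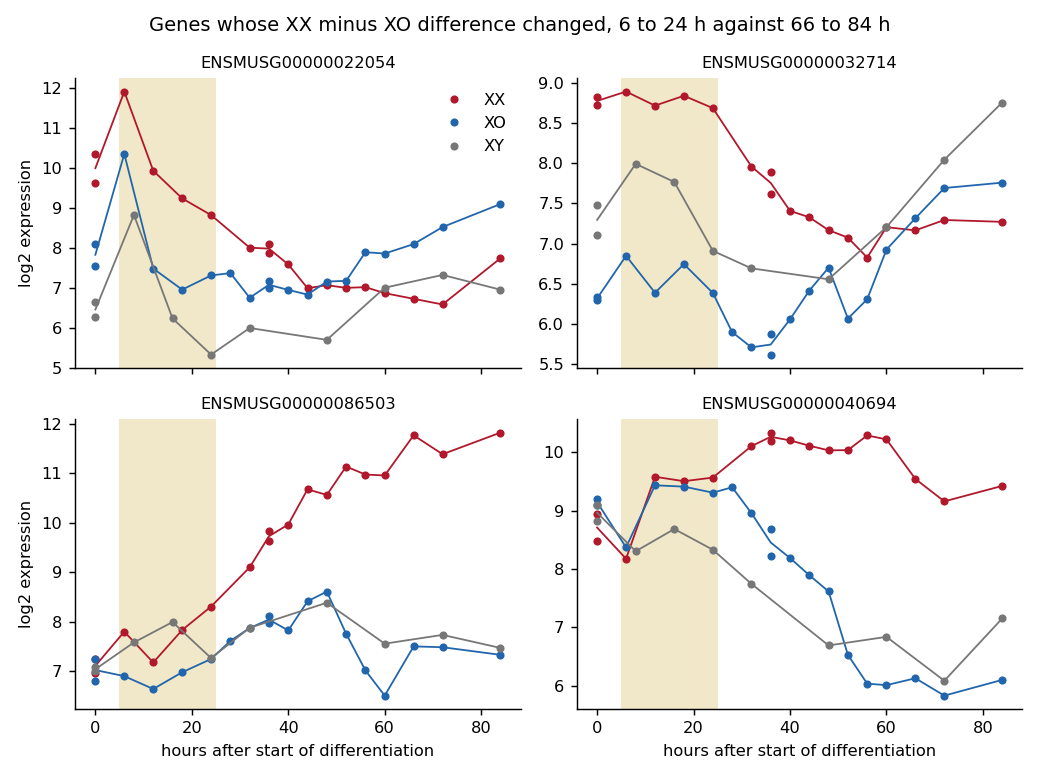
The log2 expression of 4 genes whose XX minus XO difference changed most clearly between 6 to 24 h (shaded) and 66 to 84 h is plotted against hours, with 1 point per array and lines through the mean of each hour. In the upper panels XX lies above XO early and below it late. In the lower panels the lines differ by 1.06 log2 units or less at each hour of the shaded window, and XX lies above XO by 3.36 to 4.22 log2 units on average at 66 to 84 h.

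XY cells, which have a single X chromosome and come from another line, were not used in choosing the genes. Among the 396 genes higher in XX by at least 1 log2 unit, the mean XY level at 8, 16 and 24 h lay nearer to XO in 260 (65.7%) and nearer to XX in 136. Among the 232 genes lower in XX by as much, it lay nearer to XO in 148 (63.8%) and nearer to XX in 84. Over all genes the share nearer to XO was 54.5%. XY lay between both lines in 246 of the 396 and 143 of the 232 genes, and in 5049 of all 22745 genes. Genes chosen for a wide gap leave more room between the lines, so a larger share is built into that choice. At 24 h, the only hour of the window with all 3 lines, XY was nearer to XO in 277 of 376 called genes (73.7%) at least 1 log2 unit higher in XX at that hour and in 154 of 259 (59.5%) at least 1 lower. These shares carry no test, and 1 line stands for XY. At 24 h no share over all genes was taken, and the XX and XO arrays of that hour also chose the genes. Nothing is therefore read from the 24 h shares.

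The same XY arrays served to ask how XX and XO cells stood in genes that respond early. By size alone, 603 genes were higher by at least 1 log2 unit at 8, 16 and 24 h than at 0 h in XY, with no overlap of those arrays, and 416 were lower. Among the 603 genes, the paired test of XX against XO called 83 higher (13.8%) and 102 lower in XX (16.9%), against 6.00% and 5.28% of all genes. Their median XX minus XO difference was -0.11, against 0.0040 over all genes, and XX was below XO in 56.7% of them. At 0 h the median had been 0.13. By hour, the median was -0.13, 0.066, -0.16 and -0.15 at 6, 12, 18 and 24 h, so the 12 h pair went the other way. The SD of these 4 hourly medians was 0.11, about as large as the median itself, and no direction is read from it. Without the 12 h pair the median was -0.15.

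As changes from the 0 h arrays of each line, these 603 genes had means of 0.60, 0.77, 0.91 and 1.20 log2 units in XX at the 4 hours. In XO cells the means were 0.85, 0.82, 1.29 and 1.55, and in XY cells 1.29, 1.65 and 1.75 at 8, 16 and 24 h. XX was below XO at every hour, by least at 12 h, where XO was lower than at 6 h. The genes were chosen in XY, so smaller changes in the other lines can come from that choice alone, and the 4 values of a line share its 0 h arrays. The median change in the XX minus XO difference from 0 h was -0.27 for these genes and -0.089 for all genes. With centred arrays these values were -0.18 and -0.0029.

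In the 416 genes lower early in XY, the paired test called 61 higher (14.7%) and 45 lower (10.8%) in XX, their median XX minus XO difference was 0.071, and XX was below XO in 44.0%. The SD of the hourly medians was 0.084, larger than that median. The mean change from 0 h was -0.68, -1.04, -1.16 and -1.17 in XX cells. XO cells had -0.56, -0.84, -0.93 and -1.07, while XY cells had -1.42, -1.44 and -1.67. Over all genes the mean change was -0.032, -0.035, -0.036 and 0.0099 in XX and 0.079, 0.013, 0.080 and 0.095 in XO, a shift that adds to falls and takes from rises in XX. No difference between these genes and the 603 was tested. The median change in the difference was -0.12 against -0.089 for all genes, and with quantile normalization 0.00084 against 0.0042. Of the 18 genes whose difference changed from 0 h by the direct test, 6 were among the 603 and 1 among the 416 of 22745 genes. In these the difference was lower on the first day, as it was in 16 of all 18. The count of 18 ran from 3 to 45 with 1 pair left out, and nothing is read from this overlap.

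**Figure D5:**
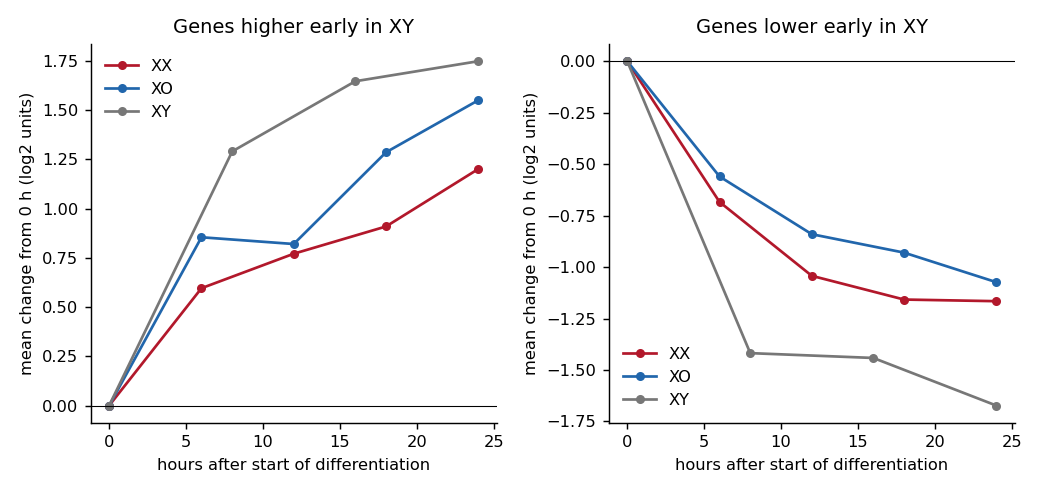
The mean change from 0 h in log2 units is plotted against hours for the 603 genes higher early (left) and the 416 genes lower early (right) in XY, with 1 line each for XX, XO and XY and the 0 h point set to 0. On the left XX lies below XO at 6, 12, 18 and 24 h, reaching 1.20 against 1.55. On the right XX lies slightly below XO, at -1.17 against -1.07 at 24 h, and XY, whose arrays chose the genes, lies beyond both lines in each panel.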

How the data were processed

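The deposited table holds 1 log2 expression value per Ensembl gene and array, and the submitters' processing notes name RMA and affy for its making. RMA is a method that subtracts background, sets arrays to a common distribution and combines probes per gene. Their versions, the probe annotation and the build stay unknown here. Columns were tied to samples by accession and title. Arrays have no read depth, so their number limits precision. XX and XO arrays of 6, 12, 18 and 24 h were compared with limma 3.58.1 in R 4.3.3 (lmFit and eBayes, hour as block, two-sided, with Benjamini-Hochberg adjustment across 22745 genes and a threshold of 0.05). The hour was used as the pairing because the labels give both lines the same hours. Deviations from the line means correlated between XX and XO arrays of the same hour at 0.361, 0.192, 0.198 and 0.450. Windows were compared on 12 paired differences, by letter at 0 h, with 8 residual degrees of freedom. A further term tested a linear trend with hours.

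Identifiers printed are the 2 per direction with the largest called differences of 1 sign in 4 pairs, and the 2 per direction with the smallest p against 0 h and against 66 to 84 h. The planned naming, 30 gene lists and the median of X-linked genes needed gene names and were left out. Genes were grouped by XY after seeing the data. The comparisons and lists were chosen with earlier results of these data known. Alternatives were scaling, a filter, the variance model, pairing, thresholds and left-out pairs. The fits were tested on simulated data. Noise there was independent for each array, without shared hour effects, so the simulation does not cover links between hours of 1 course.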

Additional observations from a re-analysis of the deposited data

Results flagged for a closer look

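The XX minus XO difference itself differed between windows of the course by a direct test (limma on paired differences). It called 18 genes for 6 to 24 h against 0 h, 804 against 40 to 48 h and 1879 against 66 to 84 h.

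At single hours, the number of genes at least 1 log2 unit lower in XX stood apart at 6 h, with 792 genes against 485 to 532 at 12, 18 and 24 h. Its gap to the nearest of the other hours was 0.847 of the whole range, above the Dixon limit for 4 values, which chance passes in about 1 in 20 such groups. With centred arrays the 6 h count was 759, against 485 to 614 at the other hours, and the gap was 0.529 of the range, under that limit. The count of genes called over the 4 hours without that pair was 1403.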

How the results depend on the processing

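For the first-day count of 2566 genes, centring gave 2604, quantile normalization 2625, leaving out the lowest 25% of genes by mean level 3029, an intensity trend in the variance 3330, and spread shared over windows 3689. Without the replicate block, that is without pairing by hour, 1350 were called, of which 1315 were among the paired calls with the same sign. At an adjusted p under 0.01, 576 were called (366 higher, 210 lower), and with at least 1 log2 unit 628. Leaving out 1 pair gave 530 to 1403. No gene called both in the main test and after centring or quantile normalization changed sign. The other settings could not show such a change. The filter, the intensity trend, the shared spread, the missing block and the thresholds leave the mean difference of a gene as it is. Genes called in the main test had the same sign in every pair, so leaving out a pair cannot turn it. The count against 0 h was 36 with an intensity trend and ran from 3 to 45 with 1 pair left out, against 40 to 48 h from 273 to 789, and against 66 to 84 h from 1212 to 1852. The split against 66 to 84 h (964 higher, 915 lower) was 863 and 1115 after centring, 962 and 1154 after quantile normalization and 1167 and 685 without the 66 h pair. The trend count stayed at 0 in all alternatives. The XX minus XO medians of genes higher and lower early in XY were -0.13 and 0.049 after centring, -0.13 and 0.048 after quantile normalization, and -0.15 and 0.12 without the 12 h pair. The value for X-linked genes was not run, since chromosomes were not at hand. Levels near the bottom of the arrays have no measured background here, so large differences may be understated. The cause of the changes in counts was not tested.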
